A study of Zea mays with 4 samples.

Results

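The genes described here are 8 maize cellulose synthases of the primary wall group, CesA-2 to CesA-9. The group was chosen with earlier results of these data known, and its members were then matched by name, through the platform annotation and the RefSeq symbols and synonyms of each probe set's gene, and are 8 of the 1108 genes that the annotation names. 9 of the 17621 probe sets that are not controls represent them. CesA-4 has 2 probe sets and the other genes have 1 each. Their identifiers, in the order of the names, are LOC542564, LOC542489, LOC542624, LOC541803, LOC541804, LOC541805, LOC541806 and LOC541807. RNA was taken from the internode at the ear, a segment of the stalk, in the inbred line F271, the parent with unfavourable alleles in a cross with F288 studied for lignin content and wall degradability. 2 arrays were hybridised with RNA from early silking and 2 with RNA from emerging tassel, called tassel emergence here, and all plants were untreated and grown in an irrigated field. The line and the growing conditions are shared by all 4 arrays, and nothing in the labels tells whether replicates were separate plants, so the p-values cover the spread among these arrays alone, and that spread may be technical.

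Cellulose is made at the plasma membrane by rosette-shaped complexes of cellulose synthase proteins, each of which extends a glucan chain from UDP-glucose. In Arabidopsis, complexes of the primary wall, laid down while cells grow, contain different synthases from complexes of the secondary wall, laid down after growth. The complexes move along cortical microtubules. In maize, cesa10, cesa11 and CesA12 are the synthases of the secondary wall, and an elongating and then stiffening internode needs both kinds.

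All 8 genes gave signal at both stages. The values are GCRMA signals on the log2 scale, 1 per probe set and array, and the 9 probe sets ran from 7.74 to 13.45 on the 4 arrays, so all 9 passed the filter for testing, a log2 value above 4 on at least 2 arrays. 6 of the 8 genes were lower at early silking without overlap between the stages, by 0.95 to 2.41 on the log2 scale, and CesA-5 and CesA-3 had overlapping stages. Among all 10782 tested probe sets, 24.9% were lower without overlap. The same 6 genes, with 7 probe sets, had an unadjusted p under 0.05 and were lower, which held for 12.1% of all tested probe sets. None of the 9 passed an adjusted p of 0.05 over all tested probe sets, where 0.0% passed (limma, smallest adjusted p = 0.0864, a value shared by 187 probe sets). In bulk tissue, fewer cells of a type and less RNA per cell cannot be told apart.

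**Figure D1:**
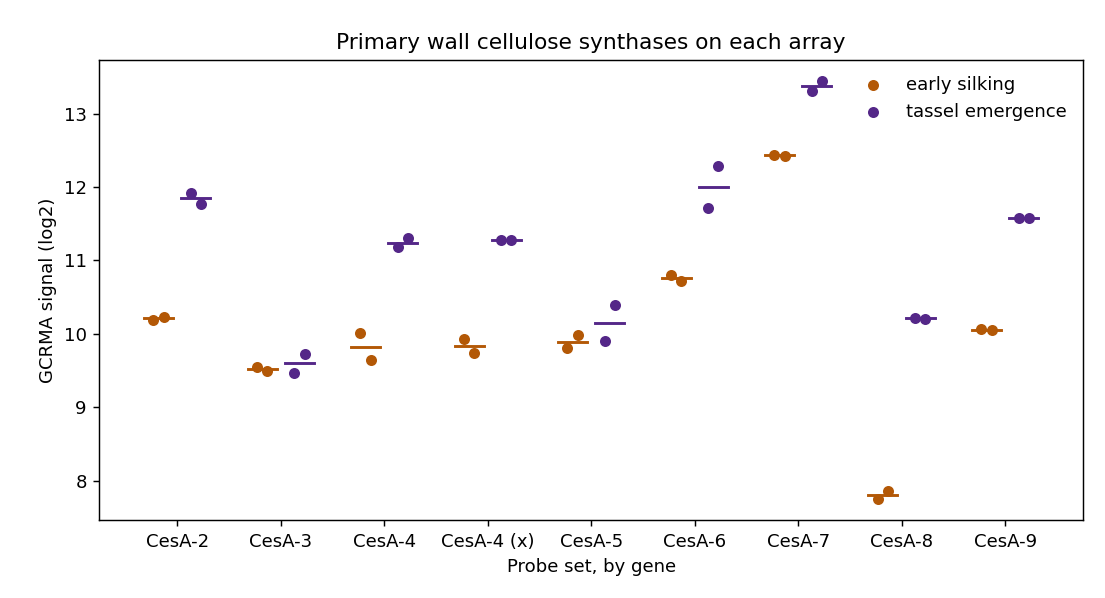
GCRMA signal (log2) of the 9 probe sets on each array, early silking left and tassel emergence right, with points for single arrays and a line at the mean of the 2 arrays of a stage; CesA-4 (x) is the second probe set of CesA-4. The stages overlap in CesA-3 and CesA-5 and are apart in the other 7 probe sets, most widely in CesA-8.

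CesA-8 had the widest difference of the 8 genes between the stages. It had 7.74 and 7.86 at early silking, against 10.22 and 10.21 at tassel emergence. The replicates of a stage lay within 0.12 of each other. The change was -2.41 ± 0.18 (SE) with a 95% interval of -2.90 to -1.92, which is 5.30-fold lower at early silking (limma, adjusted p = 0.0864). Of all tested probe sets, 2.33% had a change at or below this one, and its unadjusted p ranked 14 among the 10782.

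CesA-2, CesA-9 and CesA-4 followed, lower by 1.42 to 1.64 on the log2 scale. CesA-2 had 10.19 and 10.22 at early silking, against 11.92 and 11.77 at tassel emergence, a change of -1.64 ± 0.18 (SE; limma, adjusted p = 0.0864). CesA-9 had 10.07 and 10.05 at early silking, against 11.58 and 11.57 at tassel emergence, a change of -1.52 ± 0.17 (SE; limma, adjusted p = 0.0864). Both genes were about as high on one array of a stage as on the other, and both were lower on each early silking array than on either tassel emergence array. The SD of CesA-9 was 0.013 at early silking and 0.0058 at tassel emergence (n = 2 each). Its SE is set mostly by the variance that limma borrows from all probe sets, not by these SDs.

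The 2 probe sets of CesA-4 gave nearly the same change. The set with the suffix x had 9.93 and 9.73 at early silking, against 11.27 and 11.28 at tassel emergence, a change of -1.45 ± 0.18 (SE; limma, adjusted p = 0.0864). The plain set had 10.00 and 9.65 at early silking, against 11.18 and 11.30 at tassel emergence, a change of -1.42 ± 0.22 (SE; limma, adjusted p = 0.0926). That suffix marks a set whose probes may also bind other transcripts, and both sets are named for the same gene, so they are not separate evidence. The stages were apart in both.

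CesA-6 and CesA-7 had smaller differences. CesA-6 had 10.80 and 10.71 at early silking, against 11.71 and 12.29 at tassel emergence, a change of -1.25 ± 0.27 (SE; limma, adjusted p = 0.121). Its tassel emergence replicates were 0.58 apart, the widest gap within a stage among the members. CesA-7, the gene with the highest signal, had 12.43 on both early silking arrays, against 13.30 and 13.45 at tassel emergence, a change of -0.95 ± 0.18 (SE, 1.93-fold lower; limma, adjusted p = 0.109). The stages of both genes were apart.

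CesA-5 and CesA-3 showed no difference beyond the spread between arrays. CesA-5 had 9.80 and 9.98 at early silking, against 9.90 and 10.39 at tassel emergence, a change of -0.25 with a 95% interval of -0.95 to 0.45 (limma, adjusted p = 0.573). CesA-3 had 9.55 and 9.49 at early silking, against 9.47 and 9.73 at tassel emergence, a change of -0.08 with a 95% interval of -0.63 to 0.46 (limma, adjusted p = 0.821). The intervals leave room for differences in either direction. That of CesA-5 just reaches the change of CesA-7, the smallest among the 6 genes that were lower without overlap. That of CesA-3 does not reach the change of any of the 6. Without tassel emergence replicate 2 the value for CesA-3 was 0.05, while quantile normalization and centring kept its sign.

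**Figure D2:**
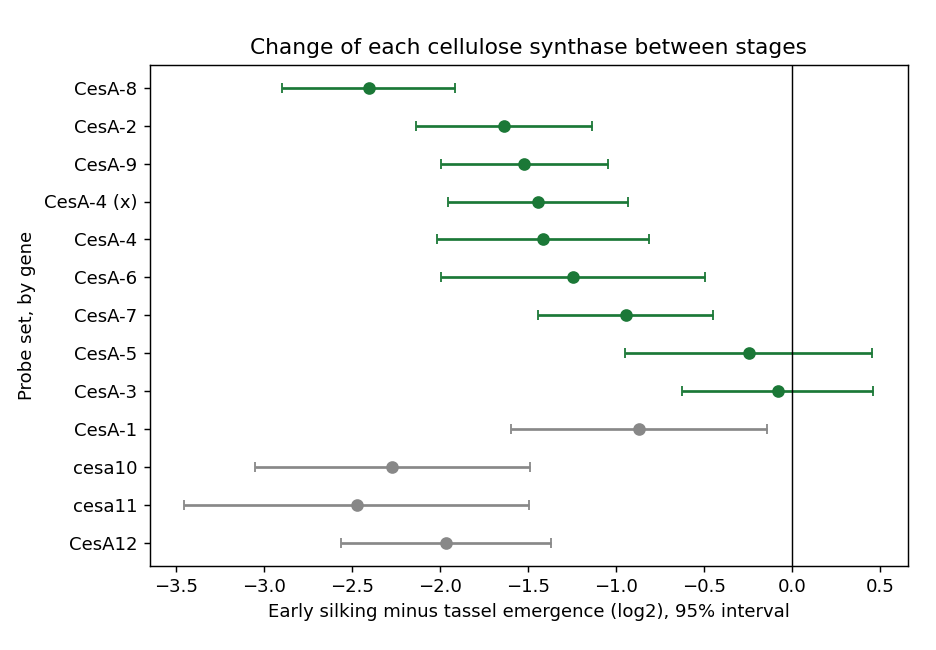
Change of each probe set (early silking minus tassel emergence, log2) with 95% intervals from limma, for the 9 member probe sets in green and for CesA-1 and 3 secondary wall synthases in grey. The intervals of 7 member probe sets lie below 0, and those of CesA-5 and CesA-3 include it.

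The median change over the 8 genes, with the probe set of the highest mean for CesA-4, was -1.35, beside a median of 0.10 over all tested probe sets. Taken relative to that median, each change is 0.10 lower. Over the 4379 tested probe sets whose mean level lay within the range of the members, the median was 0.11 and 24.8% were lower without overlap. 5 of the 8 genes were lower by at least 2-fold without overlap, against 8.29% of the probe sets in that range. The members also repeated closely, with a median gap between replicates of 0.07 at early silking and 0.15 at tassel emergence, against 0.21 and 0.28 for the same range. When the p-values were adjusted over the 800 named genes that were tested, with 1 probe set each, CesA-2, CesA-4, CesA-8 and CesA-9 passed (limma, adjusted p = 0.0465 for each), CesA-7 had 0.0898 and CesA-6 had 0.107. 2.75% of the named genes passed and were lower in that adjustment, which is not one over all probe sets.

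**Figure D3:**
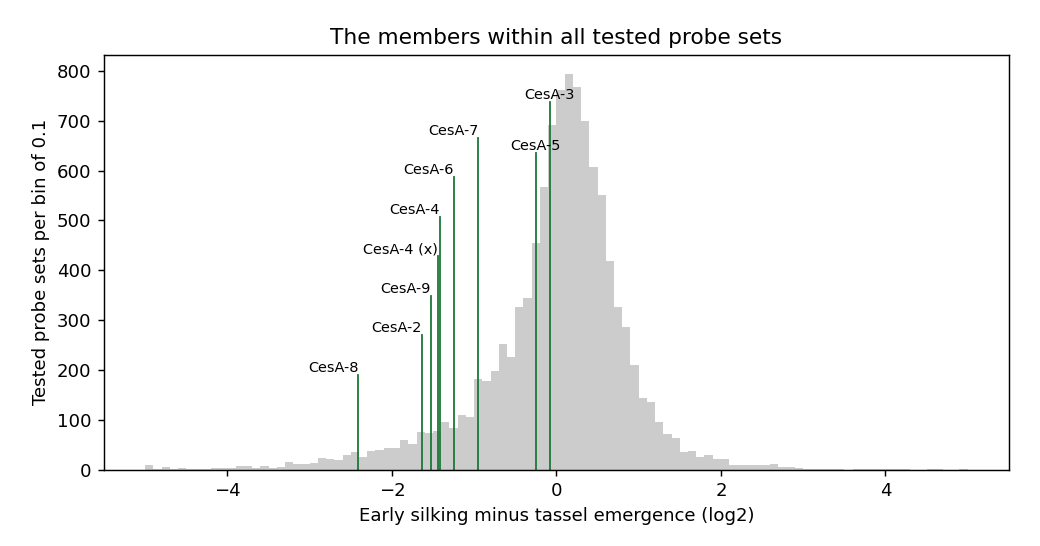
Number of tested probe sets in bins of 0.1 of the change (early silking minus tassel emergence, log2), with the 9 member probe sets as green lines whose height carries no value; 9 probe sets beyond 5 in either direction are drawn in the end bins. 7 lines lie in the lower tail, between -2.41 and -0.95, and CesA-5 and CesA-3 lie near the bulk.

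The order of the signals was led by CesA-7 at both stages. Signals of different probe sets depend on how well their probes bind as well as on the transcript, so this order is one of signals and not of transcript amounts. At early silking the order of mean log2 signals was CesA-7 at 12.43, CesA-6 at 10.76, CesA-2 at 10.21, CesA-9 at 10.06, CesA-5 at 9.89, CesA-4 at 9.83, CesA-3 at 9.52 and CesA-8 at 7.80. CesA-5 and CesA-4 were the neighbours whose arrays overlapped there. At tassel emergence it was CesA-7 at 13.38, CesA-6 at 12.00, CesA-2 at 11.85, CesA-9 at 11.58, CesA-4 at 11.28, CesA-8 at 10.21, CesA-5 at 10.14 and CesA-3 at 9.60. There CesA-6 overlapped with CesA-2, and CesA-8 with CesA-5. The lowest gene was thus CesA-8 at early silking and CesA-3 at tassel emergence. The distance between the highest and the lowest gene was 4.62 at early silking and 3.78 at tassel emergence.

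If binding acts equally at all levels of signal, differences between 2 genes on the same array leave it out once the stages are compared. Whether it does was not tested. CesA-3 exceeded CesA-8 by 1.80 and 1.62 on the early silking arrays, while on the tassel emergence arrays CesA-3 minus CesA-8 was -0.74 and -0.48. CesA-7 exceeded CesA-8 by 4.68 and 4.56 at early silking, against 3.09 and 3.24 at tassel emergence. The 2 genes differed in change by 1.46 on the log2 scale, CesA-8 being the lower.

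Over all 28 pairs of the 8 genes, the difference within an array did not overlap between the stages in 23, which is 82.1%. CesA-4 entered these pairs by its probe set with the suffix x. The share was 58.3% over the 73536 pairs of the 384 named genes in the same range of levels. Pairs share genes and arrays, and 2 against 2 arrays cannot give an exact permutation p under 0.33, so these shares are a description. All 7 pairs with CesA-8 and all 7 with CesA-7 were apart, CesA-8 on the lower side in each of its pairs. The 5 pairs that overlapped were CesA-4 with CesA-9, CesA-3 with CesA-5, and CesA-6 with CesA-2, CesA-4 and CesA-9. CesA-4 minus CesA-9 was -0.14 and -0.31 at early silking, against -0.31 and -0.29 at tassel emergence. The pair thus differed in change by 0.08, the smallest value of the 28. Some pairs were apart only narrowly. CesA-6 minus CesA-7 was -1.63 and -1.71 at early silking, against -1.59 and -1.16 at tassel emergence. CesA-2 minus CesA-9 was 0.127 and 0.178 at early silking, against 0.341 and 0.199 at tassel emergence. CesA-2 minus CesA-4 was also apart only narrowly, with 0.2647 and 0.4905 at early silking, against 0.6530 and 0.4918 at tassel emergence. By the values of the plain set of CesA-4, this last pair overlaps, so the count depends on the probe set.

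**Figure D4:**
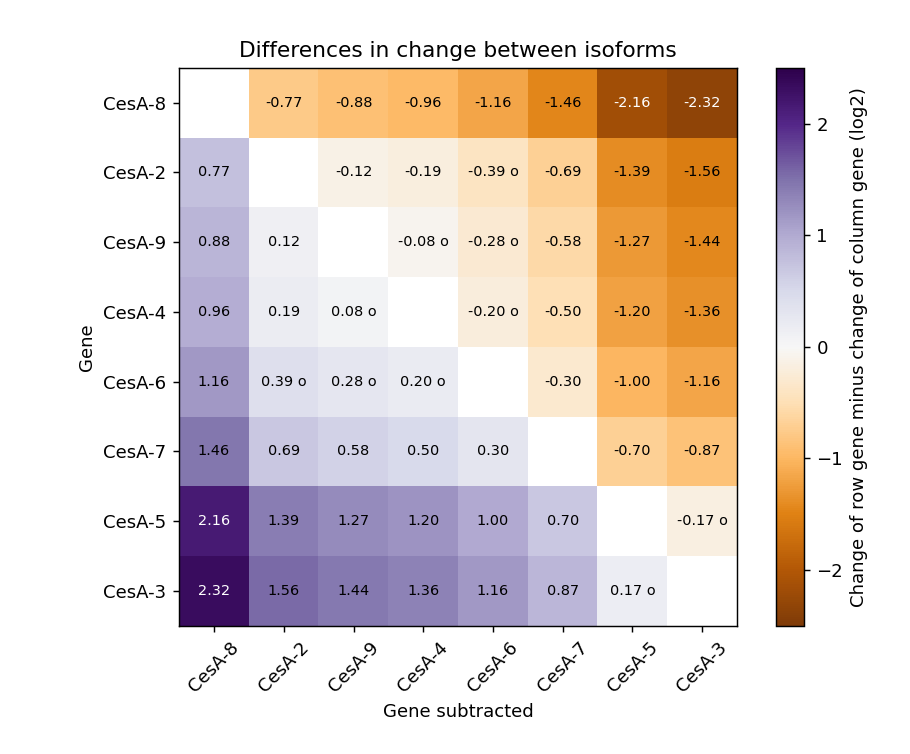
Change of the row gene minus change of the column gene (early silking minus tassel emergence, log2) for all pairs of the 8 genes, ordered by change; an o marks pairs whose within-array difference overlapped between stages. CesA-4 is shown by its probe set with the suffix x. CesA-8 is lower than every other gene, by 0.77 to 2.32, and the block of CesA-2, CesA-9, CesA-4 and CesA-6 differs by at most 0.39.

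The secondary wall synthases showed where CesA-8 stands. cesa10 had 10.62 and 10.13 at early silking, against 12.46 and 12.83 at tassel emergence, a change of -2.27. cesa11 had a change of -2.47 and CesA12 one of -1.97, with stages apart in all 3. CesA-8 minus cesa10 was -2.88 and -2.26 at early silking, against -2.24 and -2.63 at tassel emergence, and CesA-8 minus cesa11 overlapped in the same way. The difference in change was -0.13 against cesa10 and 0.07 against cesa11. CesA-8 was lower relative to CesA12 by 0.44, without overlap. The other 7 members kept more signal than cesa10 and cesa11 at early silking relative to tassel emergence, by 0.63 for CesA-2 against cesa10 up to 2.39 for CesA-3 against cesa11, each without overlap. Against CesA12, 6 of these 7 members were also without overlap, and CesA-2 was the exception, with overlapping stages and a difference in change of 0.33. By its suffix, the cesa11 probe set can report several transcripts. No readout of wall type is among the files, so the assignment of the members to the primary wall rests on their names.

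CesA-1, the remaining synthase of the numbered primary group, had 10.83 and 11.20 at early silking, against 12.09 and 11.68 at tassel emergence, a change of -0.87 ± 0.26 (SE; limma, adjusted p = 0.164). Its change was nearest to that of CesA-7, from which it differed by 0.08 with overlapping stages. It differed most from CesA-8, for which CesA-8 minus CesA-1 was -3.08 and -3.33 at early silking, against -1.87 and -1.47 at tassel emergence.

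Other genes of the pathway were taken from lists matched by symbol, each gene counted by its probe set with the highest mean. The remaining members of the secondary wall cellulose list were bk2, a COBRA-like protein needed for stalk strength, at -2.65, the bk2-like gene Bk2L3 at -1.20 and Bk2L6, which was below a log2 value of 4 on all arrays. All 5 measured genes of that list were lower without overlap and had an unadjusted p under 0.05. Of the 10 tubulins, subunits of the microtubules that guide the complexes, all were lower, 9 without overlap and 6 at an unadjusted p under 0.05, with a median of -1.18. By these probe sets they ran from tub5 at -1.93 to TUA1 at -0.44. The further probe sets of tub6, which stood at -1.83 by that rule, had larger differences, of -2.93 to -3.86. The further probe set of tua4 also had a larger difference than the probe set counted for that gene. That of tub5 went the other way, with a smaller difference of -1.004 and overlapping stages, so the fall of tub5 depends on the probe set. Of 3 genes of sucrose synthase, which can supply UDP-glucose, ss2 was lower without overlap, with 13.89 and 13.82 at early silking, against 14.37 and 14.43 at tassel emergence, and SH-1 had a change of 0.005. Of 7 measured genes for wall loosening, 6 were lower, 3 of them without overlap. The remaining gene, xet1, a xyloglucan endotransglucosylase, was higher by 0.23, also without overlap. The largest difference was that of expA4, an expansin, with 3.60 and 2.23 at early silking, against 9.21 and 6.07 at tassel emergence. Both early silking values are below 4, so expA4 was tested only through its tassel emergence signal. With 4 taken as its level at early silking, it was at least 12.5-fold lower than the mean at tassel emergence. The 2 tassel emergence arrays were far apart, and the bound from the lower of them is smaller. A further probe set of expA4 had 6.92 and 2.45 at tassel emergence and was not tested. No gene of these lists passed an adjusted p of 0.05 over all tested probe sets.

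The genes whose profiles lay closest to each member were sought among 792 other named genes, by the root mean square difference of the log2 values over the 4 arrays, each profile centred on its own mean. CesA-7 was closest to CRH, a calreticulin gene, and to 4CL, 4-coumarate:CoA ligase of the monolignol pathway, at 0.034 and 0.045. CesA-2 was closest to GAPC, a cytosolic glyceraldehyde-3-phosphate dehydrogenase, and MMT1, a methionine methyltransferase, at 0.089 and 0.11. CesA-9 was closest to frk2, a fructokinase, and to GAPC, at 0.080 and 0.13. CesA-4 was closest to mez1, a polycomb gene, and frk2, at 0.061 and 0.095. frk2 and GAPC were each named for a pair of members. CesA-6 was closest to b-70, a BiP chaperone of the endoplasmic reticulum, and pht1, at 0.066 and 0.092. CesA-5 was closest to cgs1, a cystathionine gamma-synthase, and emp2, a heat shock factor binding protein, at 0.057 and 0.070. CesA-3 was closest to LOC542170 and vdac1a, a mitochondrial porin, at 0.029 and 0.033. CesA-8 had no named gene as near as the other members had, with bk2 at 0.25 and FAD8, a fatty acid desaturase, also at 0.25. The distances are not scaled by the size of the change, and only 2.33% of tested probe sets had a change at or below that of CesA-8. Its larger distances are thus no sign of a profile of a different shape. Over 4 arrays these distances describe likeness only.

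Other values were compared between the stages beside these results, and some of them differed. The 5 lignifying stem markers, among them PAL1, 4CL and the cinnamyl alcohol dehydrogenase gene BM1, were all lower without overlap, though ccr2 was below 4 on both early silking arrays, and the log2 of their summed signal was 15.04 to 15.07 at early silking, against 15.59 to 15.83 at tassel emergence. All 8 green leaf markers had higher means at early silking, 3 without overlap, of which ME1 was below 4 on both tassel emergence arrays. The median change over all tested probe sets was also above 0, at 0.10, and the share that was higher without overlap was not counted. The summed signals of these markers overlapped, with 15.16 to 15.78 at early silking, against 14.92 to 15.59 at tassel emergence. Of 13 markers of dividing cells, 6 were measured, 3 lower and 3 higher, with summed signals of 12.36 to 12.51 at early silking, against 12.33 to 12.76 at tassel emergence. The 3 pollen profilins, 7 of 8 kernel genes and 10 of 15 floral genes were at or below 4 on all arrays. The summed floral signal was 13.36 to 13.41 at early silking, against 12.87 on both tassel emergence arrays. That sum came mostly from m19, with a change of 0.16, and zap1, with a change of 1.19. Of the 5 measured floral genes, 3 were higher and 2 lower. The excess of 3′ over 5′ signal in control transcripts, which depends on RNA integrity and amplification, averaged 1.88 and 2.44 at early silking, against 4.70 and 2.93 at tassel emergence, over 5 pairs of probe sets, 4 of which did not overlap between the stages. Between the tassel emergence arrays the 9 member probe sets differed by 0.0081 in CesA-9 to 0.58 in CesA-6, with a median of 0.14. The part of these values in the results was not tested.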

How the data were processed

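Per the submitters' processing notes, the authors summarised the arrays with GCRMA, a method that corrects background from probe sequence and normalizes the arrays to each other. The scale of the deposited values was read from the values as log2. Its version is not given in the sources used here, nor is any test. 290 to 440 ng of RNA went into each amplified and biotin-labelled sample, per the labels. The members, gene lists and rules were chosen with earlier results of these data known.

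Of 17734 probe sets, 113 controls were left out, and 10782 were tested. Genes were named through the platform annotation and, by gene identifier, a table of RefSeq genes (Zm-B73-REFERENCE-NAM-5.0): 1452 probe sets had 1 gene, 1 had several and 16168 had none. The change, as early silking minus tassel emergence, came from a limma fit (limma 3.58.1, R 4.3.3) by lmFit and then eBayes, with 2-sided p-values adjusted by Benjamini-Hochberg, 1.95 prior degrees of freedom and no replicate term. The script was tested on simulated data. The number of arrays limits the precision. For each member, the 2 closest named genes are given. In the cellulose lists every measured gene is named, in the other pathway lists the largest fall and rise. 3 symbols that matched a list by name alone (a cyclotide, a haemoglobin and a pyruvate dehydrogenase kinase) were removed, and no gene matched the list of other wall sugar and accessory genes. Arrays of the same replicate number deviated from their stage means with a correlation of -0.42, so the numbers were not taken as pairs. Tables were made with pandas 2.3.3.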

Additional observations from a re-analysis of the deposited data

How the results depend on the processing

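Results were recomputed with a replicate block, no filter, a mean log2 above 6, quantile normalization, arrays centred on their median, an intensity trend, leaving out each array and adjustment over named genes. Precision is limited by 2 arrays per stage, and leaving one out leaves a stage with a single array that is assumed to vary like the others. Of 107 changes of single probe sets under an alternative, 1 turned in sign, that of CesA-3, to 0.046 without tassel emergence replicate 2. For CesA-3, leaving out an array gave -0.21 to 0.046. A block, the filters, the intensity trend and the adjustment over named genes leave each change as it is by construction. Many of the 107 could therefore not turn in sign, and centring moves all changes by the same amount. With the replicate block no probe set passed, as without it, and 7 member probe sets kept an unadjusted p under 0.05 and were lower. Crossed pairs as a block, added after seeing the data, gave 357 probe sets past an adjusted p of 0.05, 2 of them members. Over named genes 4 members passed. Leaving out an array, no probe set and no member passed (0 in each case), 6 to 7 member probe sets had an unadjusted p under 0.05 and were lower, 6 to 8 genes were lower without overlap, and 24 to 27 pairs were apart. With fewer arrays, stages overlap less often by construction. The change of CesA-8 ran from -2.47 to -2.35, that of CesA-6 from -1.53 to -0.96, and that of CesA-5 from -0.49 to -0.004.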
